A study of Homo sapiens with 13 samples.

Results

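Immediate early genes are transcribed within minutes of a growth or stress signal, without new protein synthesis, and the DUSP phosphatases are enzymes that switch MAP kinases off again. The 10 genes described are the transcription factor genes EGR1, FOS, FOSB, JUNB and JUND, the immediate early gene IER2, and the phosphatase genes DUSP2, DUSP4, DUSP5 and DUSP6. They were found by gene name among the probes of the array, and each had 1 probe with 1 spot, so 10 of 34127 probes were concerned. CCRF-CEM cells come from a human acute lymphoblastic leukemia of T cells, and FK866 inhibits NAMPT, the enzyme that limits NAD+ synthesis from nicotinamide. RNA of the parental cells (CEM PA) and of resistant cells (CEM RES) was measured on 13 Agilent Human GE arrays of 1 colour. CEM RES were selected with rising FK866 and then maintained in 100 nM.

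There were 3 arrays of mock-treated CEM PA, 2 of CEM PA given 5 nM FK866 for 48 h, 4 of mock-treated CEM RES and 4 of CEM RES given the same dose for the same time, all labelled as biological replicates. CEM RES were kept in FK866 during routine passages, so mock-treated CEM RES are not cells that never met the drug, and whether it was withdrawn before the experiment is not given in the sources used here. The resistant cells are a selected population of 1 line. All values are log2 signals of the background-corrected intensity, quantile normalized over the 13 arrays. Differences are log2 differences from 1 limma model of the 4 groups, with Benjamini-Hochberg adjustment over 22754 probes, those called well above background on all arrays of some group. Of the 10 probes 9 passed this filter and 8 were well above background on all 13 arrays.

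All CEM RES arrays were scanned in a session of their own, session 3, and the CEM PA arrays in sessions 1 and 2, so the scan session and the cell line cannot be told apart. The number of arrays limits the precision, most of all for CEM PA with FK866. All 8 T lineage markers looked at were well above background on every array of each group. The log2 of the summed signal of 4 B lineage markers ranged from 11.80 to 12.01 in mock-treated CEM PA and from 11.10 to 11.81 in mock-treated CEM RES. The corresponding range for the 8 T lineage markers was 17.36 to 17.44 in mock-treated CEM PA and 17.49 to 17.63 in mock-treated CEM RES, with CD5 lower and CD3E and CD3G higher. Of the 4 epithelial markers 2 were well above background on every array of each group, and of the 4 myeloid markers 1, or 2 in CEM RES with FK866. The part of these differences in the results was not tested, and in RNA of whole cultures fewer cells of a type and less RNA per cell cannot be told apart.

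Growth factor and antigen receptor signals reach these genes through the RAS, RAF, MEK and ERK cascade. ERK phosphorylates ternary complex factors such as ELK1 and ELK4, which sit with serum response factor (SRF) on CArG boxes in front of immediate early genes. EGR1 is a zinc finger factor made this way, FOS and FOSB pair with JUN proteins to form AP-1, and JUND is the JUN family member that resting cells already hold. DUSP2, DUSP4 and DUSP5 are inducible phosphatases of the nucleus, DUSP6 is a cytoplasmic phosphatase selective for ERK, and all of them act as negative feedback.

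The stretch of 250 bases before the transcription start is shown for EGR1 and IER2, the genes that differed between the lines, and for FOS and JUND, which did not pass the test. The sequences are from RefSeq on GRCh38.p14, written 5′ to 3′ on the gene's strand, and promoters were on hand for 8 of the 10 genes. Capitals mark CArG boxes, the cyclic AMP response element TGACGTCA, the AP-1 site TGACTCA and the TATA box TATAAA, searched on both strands.
EGR1 (chr5:138465229-138465478, plus strand): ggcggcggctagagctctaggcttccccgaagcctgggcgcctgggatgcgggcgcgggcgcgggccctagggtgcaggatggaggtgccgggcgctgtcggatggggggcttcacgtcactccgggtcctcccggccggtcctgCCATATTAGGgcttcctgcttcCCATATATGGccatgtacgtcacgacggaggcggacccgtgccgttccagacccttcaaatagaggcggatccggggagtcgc
IER2 (chr19:13150161-13150410, plus strand): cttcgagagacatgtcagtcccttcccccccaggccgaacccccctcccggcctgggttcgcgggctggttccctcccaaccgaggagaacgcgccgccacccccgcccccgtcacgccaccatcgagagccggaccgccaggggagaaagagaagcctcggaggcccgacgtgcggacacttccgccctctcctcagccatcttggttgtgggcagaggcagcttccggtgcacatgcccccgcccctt
FOS (chr14:75278578-75278827, plus strand): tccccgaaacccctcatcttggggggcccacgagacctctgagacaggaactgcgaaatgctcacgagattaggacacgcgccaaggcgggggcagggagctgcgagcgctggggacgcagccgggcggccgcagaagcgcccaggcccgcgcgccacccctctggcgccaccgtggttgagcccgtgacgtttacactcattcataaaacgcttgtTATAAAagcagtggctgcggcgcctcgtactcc
JUND (chr19:18281623-18281872, minus strand): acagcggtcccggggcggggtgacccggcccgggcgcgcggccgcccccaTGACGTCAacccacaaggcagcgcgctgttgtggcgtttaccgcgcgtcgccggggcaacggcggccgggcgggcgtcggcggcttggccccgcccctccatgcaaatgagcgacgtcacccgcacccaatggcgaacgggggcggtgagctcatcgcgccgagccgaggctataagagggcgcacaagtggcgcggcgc
EGR1 held 2 CArG boxes, at bases 105 to 96 and 83 to 74 before the start, and was the only 1 of the 8 promoters with any. Over 34943 promoter windows of this length 1.16% held a CArG box, 1.63% held TGACGTCA, 4.22% held TGACTCA and 10.8% held TATAAA. JUND held 1 TGACGTCA, FOS, FOSB and JUNB each held 1 TATAAA, and IER2, DUSP2 and DUSP6 held none of the motifs. TGACTCA was in 0 of the 8. A match describes letters in this window and is not evidence of binding. A missing match does not mean that the gene lacks the motif outside this window.

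Without drug, CEM RES held less EGR1 and less IER2 than CEM PA. EGR1 was 9.07-fold lower and IER2 3.91-fold lower, and these were the only 2 of the 9 measured genes past the adjusted threshold, an adjusted p under 0.05. They were also the only 2 whose mock groups did not overlap, as held for 48.8% of all probes tested. The other 7 genes had log2 differences between -0.69 and 0.19. Of all probes tested 47.6% passed the adjusted threshold in this comparison, and 22.7% of all probes tested passed as lower. The 2 of 9 genes (22.2%), both lower, are thus a smaller share than that of all probes called in either direction and a share near that called as lower. The same 2 genes passed the study's own limits, an unadjusted p under 0.05 with an absolute log2 difference over 0.75, which 35.6% of all probes passed. Of the 9 genes 8 had a negative difference, with a median of -0.41 beside a median of 0.04 over all probes tested. FOS is among these 8 and passed the background filter only through CEM PA. The share of all probes with a negative difference is not given here.

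**Figure D1:**
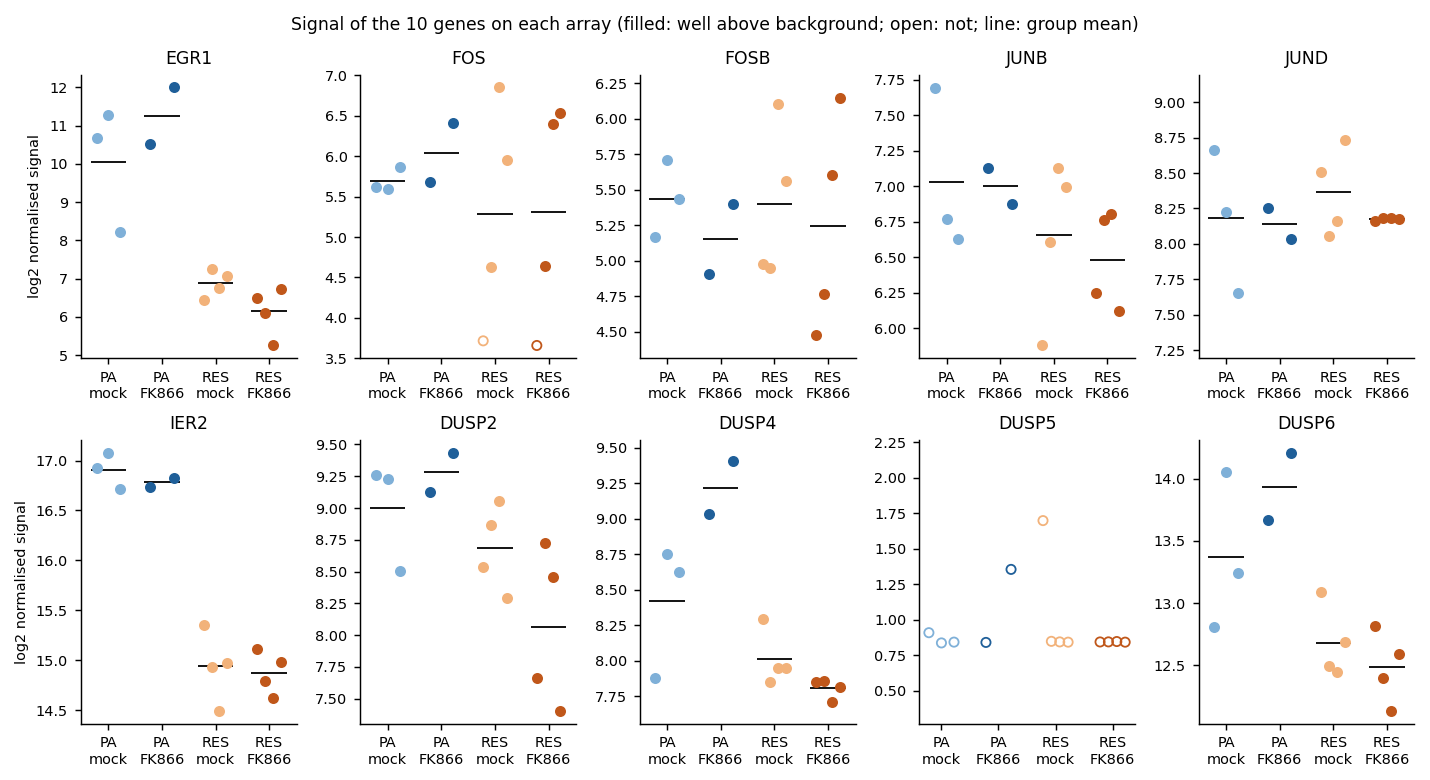
Log2 normalised signal (vertical axis, scaled for each gene) of the 10 genes on each of the 13 arrays, by group (horizontal axis), with arrays in order of their replicate number; filled points were well above background, open points were not, and lines are group means. All CEM RES arrays lie below all CEM PA arrays for EGR1 and IER2, FOS and FOSB spread widely within CEM RES, and DUSP5 has no filled point.

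EGR1 (probe on chromosome 5, hg19 137804891 to 137804950) had log2 signals of 10.68, 11.28 and 8.22 on the mock CEM PA arrays and of 10.51 and 12.00 on the CEM PA arrays with FK866. In CEM RES the mock arrays read 6.44, 7.25, 6.76 and 7.06 and the FK866 arrays 6.49, 6.11, 5.25 and 6.73. Every CEM RES array was below every CEM PA array, the nearest pair being 0.97 apart, and mock replicate 3 of CEM PA stood low in its own group. The mean was 6.88 ± 0.36 (SD, n = 4) in mock CEM RES and 10.06 ± 1.62 (SD, n = 3) in mock CEM PA, a log2 difference of -3.18 (standard error 0.63, limma adjusted p = 0.00138). Without mock replicate 3 of CEM PA the difference was -4.10 (limma adjusted p = 8.64e-05), and without mock replicate 2 it was -2.57 (limma adjusted p = 0.00782). Under FK866 the mean of CEM RES minus that of CEM PA was -5.11 on the log2 scale.

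IER2 (chromosome 19, hg19 13265586 to 13265645), whose product is a nuclear protein of the early growth response, had tighter groups than EGR1. It read 16.92, 17.08 and 16.71 on the mock CEM PA arrays and 16.74 and 16.83 with FK866. The mock CEM RES arrays read 15.35, 14.93, 14.49 and 14.97 and the FK866 arrays 15.11, 14.79, 14.62 and 14.99. The lines did not overlap, with 1.36 between the nearest arrays, and in each line the FK866 arrays lay inside the range of the mock arrays. The mock difference was -1.97 (standard error 0.20, limma adjusted p = 1.53e-05). Lines that lay apart over all 13 arrays in this direction were found for 15.1% of all probes tested.

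The AP-1 genes FOS, FOSB, JUNB and JUND did not pass the test between the lines. FOS (chromosome 14, hg19 75748214 to 75748273) read 5.62, 5.60 and 5.86 on the mock CEM PA arrays and 5.68 and 6.41 with FK866. In CEM RES it read 3.71, 4.63, 6.85 and 5.95 on the mock arrays and 3.66, 4.65, 6.40 and 6.54 with FK866, and it was well above background on 3 of 4 arrays in each of these groups. FOS passed the background filter only through CEM PA. The 3 mock CEM PA arrays thus lay within 0.27 of each other while the 4 mock CEM RES arrays spanned 3.14, on both sides of CEM PA. Mock and FK866 arrays of CEM RES with the same replicate number read nearly alike, their differences running from -0.45 to 0.58. The line difference of -0.41 (standard error 0.76, limma adjusted p = 0.69) was smaller than this spread.

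FOSB (chromosome 19, hg19 45978205 to 45978264) showed the same arrangement as FOS. It read 5.16, 5.71 and 5.44 on the mock CEM PA arrays and 4.91 and 5.40 with FK866, against 4.97, 4.95, 6.10 and 5.56 on the mock CEM RES arrays and 4.48, 4.76, 5.60 and 6.15 with FK866. In CEM RES replicates 1 and 2 were the lowest and replicates 3 and 4 the highest for both FOS and FOSB, with and without the drug. On slide 6 lay mock replicates 1 and 2 and FK866 replicates 2 and 4, and on slide 5 the remaining CEM RES arrays, so the mock arrays were split between the slides as they were by these genes and the FK866 arrays were not, and the part of the slide was not tested. The mock line difference of FOSB was -0.04 (standard error 0.39, limma adjusted p = 0.94), and it turned positive with 75th percentile scaling and with normexp background correction.

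JUNB (chromosome 19, hg19 12902998 to 12903057), an AP-1 partner that often restrains JUN, read 7.69, 6.77 and 6.63 on the mock CEM PA arrays and 7.13 and 6.87 with FK866. The CEM RES arrays read 5.88, 6.61, 7.13 and 6.99 without the drug and 6.25, 6.76, 6.80 and 6.12 with it. The groups overlapped, and the line difference was -0.38 (standard error 0.33, limma adjusted p = 0.36). JUND (chromosome 19, hg19 18391371 to 18391430) was the 1 gene whose mean was higher in mock CEM RES, with a difference of 0.19 (standard error 0.22, limma adjusted p = 0.52). It read 8.66, 8.22 and 7.66 on the mock CEM PA arrays, 8.25 and 8.03 with FK866, and 8.51, 8.06, 8.16 and 8.73 on the mock CEM RES arrays. With FK866 the 4 CEM RES arrays read 8.16, 8.18, 8.18 and 8.17, inside the range of the mock arrays.

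**Figure D2:**
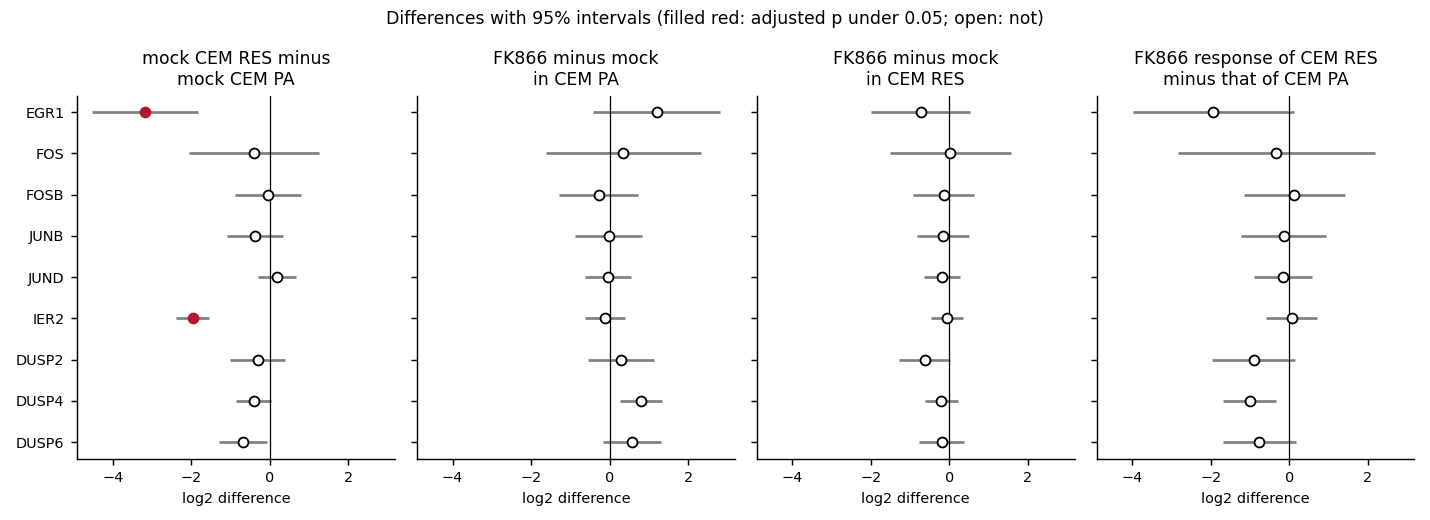
Log2 differences of the 9 measured genes (vertical axis) in the 3 comparisons and in the difference between both FK866 responses (horizontal axes, log2), with 95% intervals from limma's moderated test; red filled points had an adjusted p under 0.05. Only EGR1 and IER2 between the mock-treated lines are filled, at -3.18 and -1.97.

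Among the phosphatases, DUSP6 came nearest to a line difference without drug. DUSP6 (chromosome 12, hg19 89742144 to 89742203) read 12.81, 14.05 and 13.24 on the mock CEM PA arrays and 13.66 and 14.21 with FK866. It read 13.09, 12.50, 12.44 and 12.69 on the mock CEM RES arrays and 12.81, 12.40, 12.13 and 12.59 with FK866. The mock groups overlapped through mock replicate 1 of both lines, and the difference was -0.69 (standard error 0.28, limma adjusted p = 0.062). With the replicate number within each line as a random block, the fit gave a limma adjusted p of 0.0448. In that fit 10686 of all 22754 probes passed the adjusted threshold. Without mock replicate 1 of CEM PA the difference was -0.97 (limma adjusted p = 0.0177), and without mock replicate 1 of CEM RES it was -0.83 (limma adjusted p = 0.0363). Without mock replicate 2 of CEM PA it was -0.35 (limma adjusted p = 0.30).

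DUSP4 (chromosome 8, hg19 29194382 to 29194441), a nuclear phosphatase of ERK and the stress kinases, read 7.88, 8.75 and 8.62 on the mock CEM PA arrays and 8.30, 7.85, 7.95 and 7.95 on the mock CEM RES arrays. The mock groups overlapped, with mock replicate 1 the lowest of CEM PA and the highest of CEM RES. The difference was -0.41 (standard error 0.20, limma adjusted p = 0.12), without mock replicate 1 of CEM PA it was -0.68 (limma adjusted p = 0.008), and without mock replicate 2 of CEM PA it was -0.24 (limma adjusted p = 0.40). DUSP2 (chromosome 2, hg19 96809903 to 96809962), a phosphatase of activated lymphocytes, read 9.26, 9.23 and 8.50 on the mock CEM PA arrays and 8.53, 8.87, 9.06 and 8.29 on the mock CEM RES arrays, and these overlapped with a difference of -0.31 (standard error 0.32, limma adjusted p = 0.45). DUSP5 (chromosome 10, hg19 112270900 to 112270959) was not well above background on any array, in either line or treatment, so no level or fold is given.

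In CEM PA the exposure to FK866 left 8 of the 9 genes inside the range of mock cells or overlapping it. DUSP4 was the exception, with 9.03 and 9.40 on the FK866 arrays, both above the 3 mock arrays. None of the 9 genes passed the adjusted threshold in limma and 1, DUSP4, had an unadjusted p under 0.05, whereas 1.53% of all probes passed the adjusted threshold. DUSP4 also exceeded the study's limits, as did 6.7% of all probes, and groups without overlap were found for 1 of 9 genes (11.1%) and for 34.8% of all probes. The median difference of the 9 genes was 0.28, beside -0.003 over all probes tested.

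For DUSP4 the difference was 0.80 (standard error 0.24, 95% interval 0.27 to 1.33, unadjusted p = 0.00647, adjusted p = 0.14 in limma). Within replicate number 1 the FK866 array was 1.16 above its mock array, and within number 2 it was 0.66 above. Blocking by replicate number gave a difference of 0.91 (limma adjusted p = 0.041), and blocking by scan session one of 0.91 (limma adjusted p = 0.0295), both past the threshold. Within session 1 the difference was 1.16, from 1 array of each treatment, and within session 2 it was 0.72, from 1 FK866 and 2 mock arrays. Without mock replicate 1 it was 0.53 (limma adjusted p = 0.22) and without FK866 replicate 2 it was 0.62 (limma adjusted p = 0.61).

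DUSP6 was also higher in both pairs of CEM PA arrays, by 0.85 and 0.16, but its groups overlapped and the difference was 0.57 (standard error 0.34, limma adjusted p = 0.49). EGR1 had the larger mean difference, 1.20 (standard error 0.75, limma adjusted p = 0.52), with a 95% interval from -0.43 to 2.82. That difference came with the low mock replicate 3, without which it was 0.28 (limma adjusted p = 0.91). Within session 1 it was -0.17 and within session 2 it was 2.25, and with the replicate number as a block it was 0.28. DUSP2 read 9.12 and 9.43 with FK866, beside a mock range up to 9.26, a difference of 0.28 (standard error 0.39, limma adjusted p = 0.83).

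FOS and FOSB in CEM PA went opposite ways in the mean, by 0.35 (standard error 0.91) and -0.28 (standard error 0.46), neither past the test. FOS was higher in both pairs, by 0.05 and 0.81, and FOSB, JUND and IER2 were lower in both. The share of all probes whose pairs agree is not given here. JUNB, JUND and IER2 had differences of -0.03, -0.04 and -0.12, with limma adjusted p values from 0.89 to 0.99. The 95% interval for IER2, the most tightly measured of them, ran from -0.64 to 0.39.

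In CEM RES the same dose gave no call. None of the 9 genes passed the adjusted threshold in limma and 0 had an unadjusted p under 0.05, with 0.0% of all probes past the adjusted threshold (1171 had an unadjusted p under 0.05) and 1.3% past the study's limits. In 8 of the 9 genes the mean was lower with FK866, with a median of -0.19 beside -0.02 over all probes tested. For all 9 genes the groups overlapped, and 2.9% of all probes had groups without overlap.

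DUSP2 had the lowest unadjusted p of the 9 in CEM RES. It read 8.53, 8.87, 9.06 and 8.29 on the mock arrays and 7.67, 8.72, 8.46 and 7.41 with FK866, lower in each of the 4 replicate pairs by 0.14 to 0.89. The difference was -0.62 (standard error 0.30, unadjusted p = 0.0581, adjusted p = 0.94 in limma), and within slides 5 and 6 it was -0.61 and -0.63. Without FK866 replicate 2 or 3 or mock replicate 4 DUSP2 exceeded the study's limits, at -0.84, -0.76 and -0.75, with limma adjusted p values of 0.86, 0.84 and 0.96. Without FK866 replicate 4 the difference was -0.40 (limma adjusted p = 1.00). Blocked by replicate number, the limma adjusted p was 0.41.

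DUSP6 was likewise lower in 4 of 4 pairs, by 0.10 to 0.31, with a difference of -0.19 (standard error 0.26, limma adjusted p = 1.00) and group ranges that overlapped. DUSP4 read 7.85, 7.85, 7.71 and 7.81 with FK866 and was lower in 3 of 4 pairs, at -0.20 (standard error 0.19, limma adjusted p = 0.98). EGR1 was lower in 3 of 4 pairs, at -0.73 (standard error 0.58, limma adjusted p = 0.97), and within slides 5 and 6 at -1.04 and -0.43. FOS, FOSB, JUNB, JUND and IER2 differed by 0.02, -0.15, -0.17, -0.19 and -0.06.

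**Figure D3:**
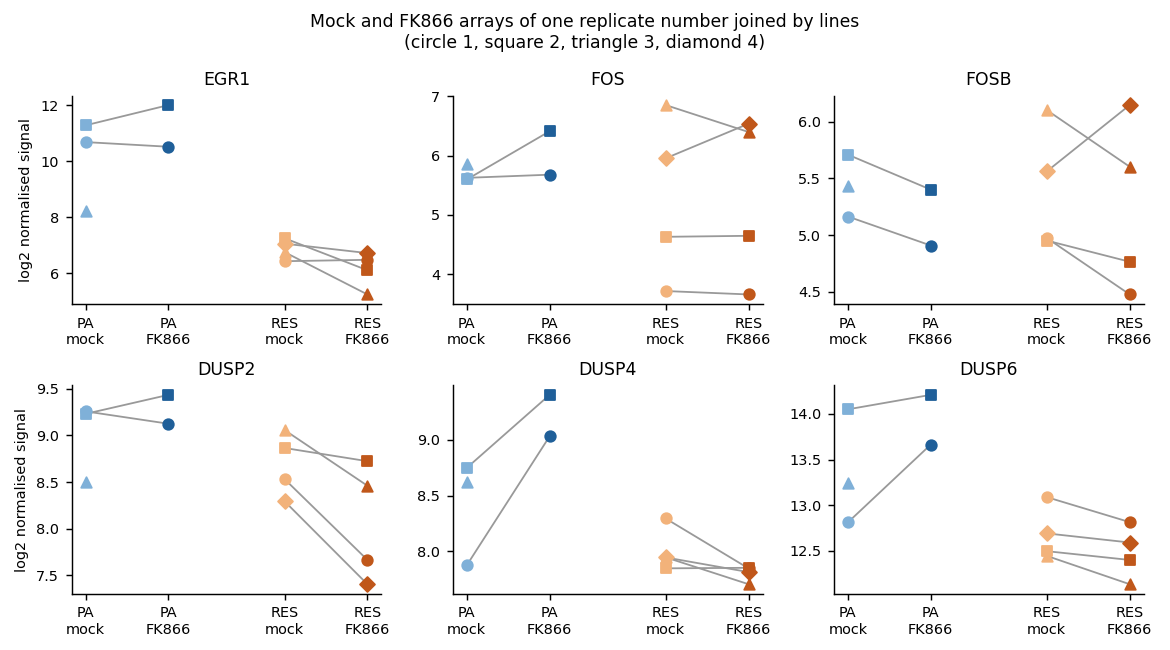
Log2 normalised signal (vertical axis) of EGR1, FOS, FOSB, DUSP2, DUSP4 and DUSP6 on the mock and FK866 arrays of each line (horizontal axis), with arrays of one replicate number joined by a line and marked by symbol. DUSP4, DUSP6 and FOS lie higher with FK866 in both CEM PA pairs, and FOSB lies lower in both. DUSP2 and DUSP6 lie lower in all 4 CEM RES pairs, and FOS keeps its level within CEM RES pairs while the pairs lie far apart.

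Whether the lines answered FK866 differently was tested by the difference of both responses. None of the 9 genes passed the adjusted threshold in limma, 1 had an unadjusted p under 0.05, and 0.413% of all probes passed. DUSP4 exceeded the study's limits, as did 8.03% of all probes, with a response in CEM RES that was lower than that in CEM PA by 1.01 (standard error 0.31, unadjusted p = 0.00681, adjusted p = 0.21 in limma). In the fit blocked by replicate number this was -1.11 (limma adjusted p = 0.0564). For EGR1 the difference of responses was -1.93 (standard error 0.95, limma adjusted p = 0.44), for DUSP2 -0.91 (standard error 0.49, limma adjusted p = 0.49) and for DUSP6 -0.76 (standard error 0.43, limma adjusted p = 0.51). The intervals of these 3 include 0. For IER2 it was 0.06 (95% interval -0.59 to 0.71).

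The order of the 4 groups by mean was the same for EGR1, DUSP2, DUSP4 and DUSP6, with CEM PA with FK866 highest, then mock CEM PA, mock CEM RES and CEM RES with FK866. Without a block, neighbours in this order did not differ beyond the test except mock CEM PA and mock CEM RES for EGR1. For IER2 both CEM PA groups (16.90 ± 0.18, SD, n = 3, without and 16.78 ± 0.06, SD, n = 2, with FK866) stood above both CEM RES groups (14.94 ± 0.35 and 14.88 ± 0.22, SD, n = 4 each), and within a line the groups did not differ beyond the test.

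After the mean of each line was subtracted, the signal of DUSP6 over the 13 arrays ran closest to a probe without a gene symbol (Pearson r = 0.923). It was followed by HIST1H1C (0.917), a linker histone gene, ID3 (0.89), an inhibitor of helix-loop-helix factors and itself an early response gene, FAM160A2 (0.88) and KLF6 (0.88), the 5 highest of 17559 genes compared. Of the genes described here DUSP4 ran closest to DUSP6 (0.85), while JUNB ran against it (-0.60). For EGR1 the 2 highest were probes without a gene symbol (0.89 and 0.87). They were followed by RSAD2 (0.86), GPR18 (0.86) and LOC100131231 (0.86), and DUSP6 was the nearest of the genes described here (0.55). Within CEM PA EGR1 ranged from 8.22 on mock replicate 3 to 12.00 on FK866 replicate 2. The weight of single arrays in these correlations was not tested. These are descriptions of 13 arrays that share lines, scan sessions and replicate numbers.

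Among other genes of the pathway some passed the test between the lines, in both directions, beside 47.6% of all probes tested. Of 20 other immediate early genes 17 were measured, and 10 passed the adjusted threshold between the mock-treated lines, 58.8% of those measured, 4 as higher and 6 as lower in CEM RES, with a median difference of -0.33. EGR2, FOSL1 and KLF4 passed the filter on dim probes through the arrays of only 1 line, and 2 of these 3, EGR2 and KLF4, are among the 10. JUN, the partner of FOS in AP-1, is named here after its value was seen, with a difference of -1.33 (standard error 0.29, limma adjusted p = 0.00279). KLF2, a factor of quiescent T cells, had a difference of -2.76 (standard error 0.23, limma adjusted p = 4.4e-06) and was well above background on 3 of 4 mock CEM RES arrays. NR4A3, an orphan nuclear receptor induced by T cell receptor signals, had a difference of -1.77 (limma adjusted p = 0.0119), and without mock replicate 2 of CEM PA one of -1.40 (limma adjusted p = 0.0598). EGR2, a paralog of EGR1, passed the filter only through CEM PA and was well above background on 1 of 4 mock CEM RES arrays. Its fitted difference was -2.38 (limma adjusted p = 0.0295), its mock CEM PA arrays had an SD of 2.08, and without mock replicate 2 of CEM PA its difference was -1.23 (limma adjusted p = 0.14). The EGR2 call was also lost without mock replicate 2 or 4 of CEM RES, at limma adjusted p values of 0.063 and 0.0542. With 75th percentile scaling, normexp, no filter on dim probes and the scan session as a block it was lost as well, with differences from -2.38 to -0.81 and limma adjusted p values from 0.0511 to 0.13. MYC, which is also a driver of T cell leukemia, had a difference of 1.93 (standard error 0.44, limma adjusted p = 0.00326).

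Of 6 other MAP kinase phosphatases all 6 were measured, and 3 of the 6 (beside 47.6% of all probes tested) passed between the mock-treated lines. DUSP7, an ERK phosphatase of the cytoplasm, had a difference of -1.19 (limma adjusted p = 0.00448) and DUSP10, a phosphatase of p38 and JNK, one of -0.76 (limma adjusted p = 0.0229). The DUSP10 call was lost without mock replicate 1 of CEM PA (-0.59, limma adjusted p = 0.0992) and without mock replicate 2 of CEM RES (-0.59, limma adjusted p = 0.0594). DUSP8 was higher by 0.81 at the probe with the highest signal (limma adjusted p = 0.00323), while its other probes had differences from -0.27 to 0.11. The median of the 6 was -0.30.

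Of 12 other ERK feedback and target genes 9 were measured, and 5 (55.6%, beside 47.6% of all probes tested) passed between the mock-treated lines, 2 as higher and 3 as lower in CEM RES, with a median of 0.15. PHLDA1, induced by ERK, had a difference of -2.27 (limma adjusted p = 0.000241), ETV4, an ETS factor downstream of ERK, one of -1.87 (limma adjusted p = 0.000186, well above background on 3 of 4 mock CEM RES arrays and past the filter only through CEM PA) and SPRED3, a member of the RAF inhibitor family, one of -1.25 (limma adjusted p = 0.000813). SPRY2, a feedback inhibitor of receptor signalling to RAS, was higher by 1.49 (limma adjusted p = 1.8e-05).

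All 16 genes of the ERK cascade and of SRF and its partners were measured, and 6 (37.5%, beside 47.6% of all probes tested) passed between the mock-treated lines, 4 as higher and 2 as lower in CEM RES, with a median of -0.02. ELK4, a ternary complex factor that binds beside SRF, was higher by 2.96 (standard error 0.20, limma adjusted p = 1.2e-06), and by 2.53 at its other probe. NRAS was higher by 1.37 (limma adjusted p = 3e-05) and by 0.22 at its other probe, and HRAS by 1.15 (limma adjusted p = 0.00209). MAP2K2, which encodes MEK2, had a difference of -0.98 (limma adjusted p = 0.00175). RPS6KA3, an ERK-activated kinase, had a difference of -1.36 (limma adjusted p = 0.0026), with 0.28 at its other probe.

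With FK866 in CEM PA few of these genes passed. SPRY2 rose by 0.89 (standard error 0.18, limma adjusted p = 0.0341) and NRAS by 0.94 (standard error 0.18, limma adjusted p = 0.0264), and both calls were lost when either FK866 array of CEM PA was left out, when mock replicate 2 or 3 of CEM PA was, and for SPRY2 also without mock replicate 1 of CEM PA or FK866 replicate 3 of CEM RES. Both calls were also lost without the filter on dim probes and with CEM PA fitted alone. That of SPRY2 was also lost with normexp (0.64, limma adjusted p = 0.0585) and with only the brightest probe of each gene (limma adjusted p = 0.0537). With the slide as a block both calls were lost too, at 0.89 for SPRY2 and 0.78 for NRAS. In CEM PA only slide 1 held both treatments, so that fit compares 1 FK866 array with 1 mock array. Past the study's limits were also DUSP10 at 1.16 (limma adjusted p = 0.073) and ELK4 at 0.91 (limma adjusted p = 0.0905). Blocking by replicate number put DUSP10 at 1.07 (limma adjusted p = 0.0412) and ELK4 at 1.05 (limma adjusted p = 0.0338), both past the adjusted threshold. Of the 17 other immediate early genes 0 passed either limit in CEM PA, with a median of -0.08. In CEM RES 0 genes of the 4 lists passed either limit, with list medians from -0.07 to 0.05 on the log2 scale.

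**Figure D4:**
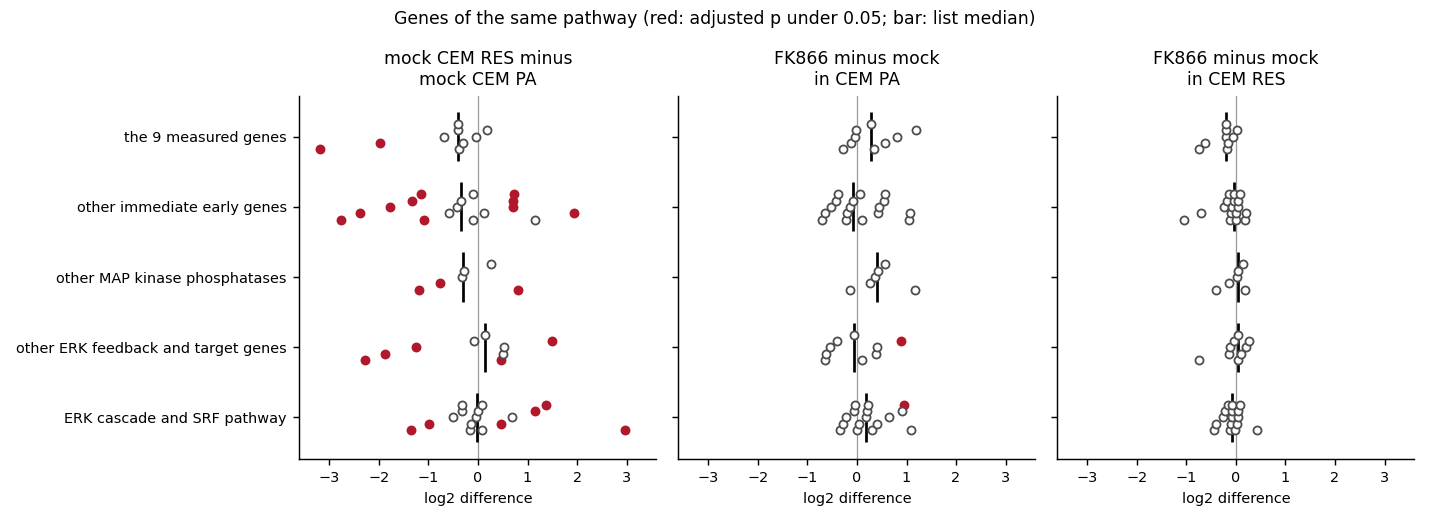
Log2 differences (horizontal axes) of the 9 measured genes and of the genes of 4 related lists (rows, with points spread vertically for legibility) in the 3 comparisons; red points had a limma adjusted p under 0.05 and black bars are medians. Between the mock-treated lines red points lie on both sides of 0, with FK866 in CEM PA only SPRY2 and NRAS are red, and in CEM RES none is.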

How the data were processed

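The authors deposited for each of the 13 arrays the spot intensity written by Agilent Feature Extraction (10.7.7.1 per the submitters' notes), background-corrected but without normalization between arrays. A log2 table of the same arrays, quantile normalized by the authors, was deposited too and served as an alternative. Outlier spots were set to missing, control spots removed, log2 intensities quantile normalized and the spots of a probe averaged. All kept probes were fitted with limma 3.58.1 in R 4.3.3 (two-sided moderated test). Other steps used Python 3.11.15, numpy 2.4.6 and pandas 2.3.3.

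Genes and lists were chosen with earlier results of these data known. Every probe of the 10 genes is reported. Each list gives counts and up to 3 genes in each direction past the study's limits, by the kept probe of highest mean signal; not every gene under this rule is reported here, and JUN, FOSL1 and KLF4 were named after their values were seen. Equal replicate numbers of mock and FK866 arrays come from the labels. In CEM RES their deviations from group means correlated across probes at 0.20, 0.39, 0.47 and 0.29, beside -0.30 to 0.08 for unequal numbers. In CEM PA equal numbers gave 0.46 and 0.35. With 2 FK866 arrays these deviations are mirror images, so the 2 values are not independent. FK866 replicate 2 also gave 0.26 with mock replicate 3. Replicate 1 was alone in scan session 1 of CEM PA, so pairing and session cannot be fully told apart there. The numbers were used as a block in an alternative, and mock replicate 3 of CEM PA has no partner. Between the mock-treated lines each block was random and defined within a line, so arrays were not matched across the lines. Alternatives covered scaling, background, filters, outliers, blocks, weights, variance trend and each array left out. The fit was tested on simulated data. By Dixon's test no group of 4 arrays held an outlier among the 9 genes.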

Additional observations from a re-analysis of the deposited data

How the results depend on the processing

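EGR1 and IER2 were lower in mock CEM RES and past the adjusted threshold under all 26 alternatives run, from -4.10 to -2.57 and from -2.11 to -1.65 on the log2 scale. The median of all probes moved with 75th percentile scaling, between the mock-treated lines, from 0.04 to 0.17. With the replicate number or the scan session as a block, 1 of the 9 genes (DUSP4) passed the adjusted threshold for FK866 in CEM PA in place of 0. Beside DUSP4 in CEM PA and DUSP6 between the lines, the replicate block changed no other call of the 9 genes, but over all probes it moved the count past the adjusted threshold from 347 to 1218 in CEM PA and from 94 to 486 for the difference of responses. Under the study's limits 0 genes passed in CEM PA with normexp background correction or array quality weights, in place of 1, and 0 to 3 when 1 array was left out. Of all 22754 probes 617 passed these limits in CEM PA with normexp and 1796 with array quality weights. In CEM RES 0 to 1 of the 9 genes passed when 1 array was left out, beside 139 to 607 of all probes. Between the mock-treated lines 4 of the 9 genes passed the adjusted threshold with array quality weights (EGR1, IER2, DUSP4 and DUSP6), beside 11397 of all 22754 probes. When 1 array was left out 2 to 4 passed, beside 9445 to 10733 of all probes. For the difference of responses 1935 of all probes passed the study's limits with 75th percentile scaling, 2098 with the scan session as a block and 1826 with an intensity trend. For the difference of responses 2 genes passed the study's limits with 75th percentile scaling, with the scan session as a block and with an intensity trend, in place of 1, and 1 to 3 when 1 array was left out.

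Some uncalled differences changed sign, and the cause was not tested. For FK866 in CEM PA these were EGR1 (-0.17) and DUSP2 (-0.13) with the slide as a block, JUNB with array quality weights (0.11) and IER2 with 75th percentile scaling (0.0168). In CEM PA only slide 1 held both treatments, with 1 array of each. The slide block thus gives the difference of that pair alone, also as the CEM PA part of the difference of responses. In CEM RES FOS was at -0.12 with 75th percentile scaling and -0.38 with array quality weights. Between the mock-treated lines FOSB was at 0.31 with 75th percentile scaling and 0.0852 with normexp. For the difference of responses normexp gave FOSB -0.0126, JUNB 0.0410 and IER2 -0.0902, the slide as a block gave JUNB 0.39 and JUND 0.21, the replicate block gave JUNB 0.0587 and JUND 0.11, and 75th percentile scaling gave IER2 -0.16. With 1 array left out, the range in CEM PA was -0.0173 to 0.72 for FOS, -0.23 to 0.30 for JUNB and -0.30 to 0.20 for JUND. In CEM RES it was -0.50 to 0.57 for FOS, -0.45 to 0.11 for FOSB and -0.21 to 0.0783 for IER2. Between the mock-treated lines it was -0.93 to 0.12 for FOS, -0.27 to 0.11 for FOSB and -0.0755 to 0.43 for JUND. For the difference of responses it was -0.85 to 0.22 for FOS, -0.17 to 0.39 for FOSB, -0.47 to 0.0587 for JUNB, -0.39 to 0.11 for JUND and -0.0873 to 0.20 for IER2. Leaving out 1 FK866 array of CEM PA leaves a lone array there, whose spread is taken to be that of the remaining groups.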

Other observations

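For the difference between both FK866 responses, 5 genes of the related lists passed the study's limits, as did 8.03% of all probes tested. They were 0 of 17 other immediate early genes, 1 of 6 other MAP kinase phosphatases, 2 of 9 other ERK feedback and target genes and 2 of 16 genes of the ERK cascade and SRF. The adjusted threshold in limma was passed by 0 of them and by 0.413% of all probes. The response of CEM RES was lower than that of CEM PA for ELK4 by 1.35 (limma adjusted p = 0.0909), for DUSP10 by 1.13 (limma adjusted p = 0.24), for NRAS by 0.89 (limma adjusted p = 0.13) and for SPRY2 by 0.84 (limma adjusted p = 0.16). It was higher for SPRED3, at 0.85 (limma adjusted p = 0.35). Blocked by replicate number, ELK4 was at -1.50 (limma adjusted p = 0.0381) and SPRY2 at -0.84 (limma adjusted p = 0.0484), both past the adjusted threshold.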
